A study of Mus musculus with 16 samples.

Results

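The pan-endothelial genes described here are 33 genes that are used as general markers of the vessel lining, as adhesion and junction proteins of endothelial cells, or as transcription factors and signalling proteins that these cells share whatever the vessel type. They were followed in whole mouse retina over 4 treatments. Members were found by the gene symbol, current or older, of the array probes, and each was represented by its brightest probe. All 33 were found among the 23342 genes measured. The rule that found them uses no difference between treatments, but the list was chosen with earlier results of these data known.

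Retinas came from C57Bl6 mouse pups and were collected 24 h after intravitreal injection. Dll4-Fc arrays (n = 4) came from pups given 4 µg Dll4-Fc at 8 days of age, and VEGF-A arrays (n = 5) from pups given 1 µg VEGF-A at that age. VEGF Trap arrays (n = 3) carry that treatment label, with dose and age not given in the sources used here. hFc arrays (n = 4), the control, came from pups given 4 µg hFc at 8 days. No transgene or mutation is named for any group. Each sample was hybridised in Cy3 against a Cy5-labelled pool of the experiment's own RNA, so that a value here is the log2 ratio of a retina over that pool, and the pool is the same on every array.

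Endothelial cells line all blood vessels, and the developing mouse retina gains its vascular layers after birth. VEGF-A is the main growth factor that drives endothelial cells to sprout, divide and survive, chiefly through the receptor VEGFR2. VEGF Trap is a decoy built from VEGF receptor domains and an antibody tail that binds VEGF ligands. Dll4 is a Notch ligand of tip cells that restrains sprouting by their neighbours, and its soluble Fc fusion has been used to block that signal. hFc is a human antibody tail without a ligand. ETS factors such as Erg, Fli1 and Ets1, together with SoxF factors and GATA and SCL-type factors, are known to maintain endothelial gene expression.

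In a fit over all genes the pan-endothelial genes were mostly higher in VEGF-A retinas and mostly lower in VEGF Trap retinas than in hFc retinas. A gene was called when its limma p, adjusted by Benjamini-Hochberg over all genes tested, was below 0.05. In VEGF-A over hFc retinas, 26 of the 31 members with a value were called higher and 2 lower, against 5.89% of all genes called higher and 4.3% called lower. Differences are on the log2 scale, and each ± after one is its standard error. The median member difference was 0.86 on the log2 scale, where that of all genes was −0.05. In VEGF Trap over hFc retinas none of 31 was called higher and 20 were called lower, against 1.3% of all genes higher and 2.43% lower. With only those 2 groups in the fit the calls over all genes turned to 300 higher and 241 lower, where the members had 0 higher and 14 lower. The median member difference in the fit over 4 groups was −0.52, beside −0.03 for all genes. At an unadjusted p under 0.05 in limma, 0 members were higher and 25 lower with VEGF Trap.

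Single arrays mattered most for VEGF Trap. Its count of 20 members lower than hFc fell to 10 without VEGF Trap replicate 1, to 12 without VEGF Trap replicate 3, to 12 without hFc replicate 2 and to 13 without hFc replicate 3. With the Cy3 channel alone the VEGF Trap calls of Cdh5, Emcn, Erg, Esam, Ets1, Gata2, Lyl1, Mmrn1, Rasip1, Sox7 and Stab1 were lost, and with slide 4 only those of Pecam1 and Tal1 and of all these genes but Emcn. Cd34, Icam2, Mmrn2, Myct1, Nostrin, Sox18 and Vwf were the 7 of the 20 whose calls were lost under no setting in which they had a value. For VEGF-A over hFc, 22 of the 28 calls were lost under no setting in which the member had a value. Emcn is among the 22, though its only hFc value is on replicate 2 and it could not be tested without that array. The 2 members called lower with VEGF-A became 0 without hFc replicate 2 or 4, and 1 without hFc replicate 1 or VEGF-A replicate 1, 2 or 5.

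Fewer members were called in Dll4-Fc retinas. There 9 of 31 members were called higher and 1 lower than in hFc retinas, against 3.06% and 1.52% of all genes, with a median of 0.20 where all genes had −0.02. Of those 10 calls, 5 were lost under no setting in which the member had a value, and they were Egfl7, Lyl1, Mmrn2, S1pr1 and Vwf. Lyl1 could not be tested in the setting that takes the brightest probe with a value on every hFc array. VEGF-A set directly against VEGF Trap gave 27 of 33 members called higher and 0 lower (28 and 1 at an unadjusted p under 0.05 in limma), against 10.6% and 8.68% of all genes, and a median of 1.36 beside −0.03. Dll4-Fc against VEGF-A gave 4 of 33 called higher and 23 lower, against 6.35% and 6.91% of all genes, and a median of −0.78 beside 0.03. The comparisons with hFc share the same 4 control arrays. With bulk retina, fewer endothelial cells and less of these RNAs per cell cannot be told apart.

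**Figure D1:**
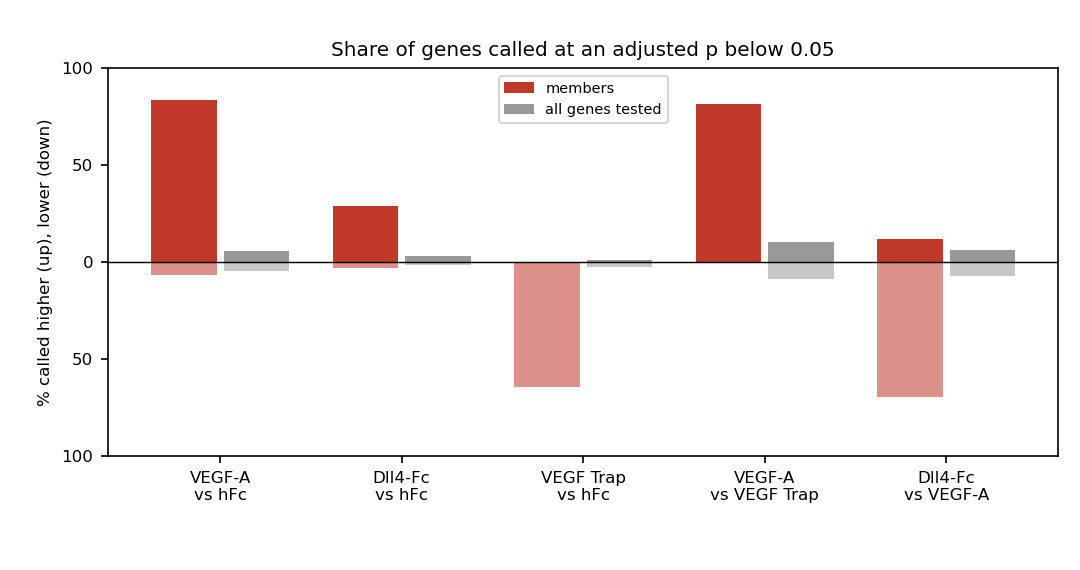
Percentage of genes called higher (bars up) and lower (bars down, pale) at an adjusted p below 0.05 in 5 comparisons, for the pan-endothelial members (red) and for all genes tested (grey). Members called higher made up 83.9% in VEGF-A over hFc retinas and members called lower 64.5% in VEGF Trap over hFc retinas.

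Of the 31 members with a value in all 4 groups, 26 had their highest group mean in VEGF-A retinas and 26 their lowest in VEGF Trap retinas. In 21 of them the 4 means followed a single order, low to high, of VEGF Trap, hFc, Dll4-Fc and VEGF-A. The matching shares over all genes were not counted, so these counts describe the members alone. Dll4-Fc held the highest mean for the remaining 5, which were Mmrn1, Clec14a, Vwf, Lyl1 and Ushbp1. Over the 26 members measured on every array, the mean log2 level was −0.15 to −0.04 on the Dll4-Fc arrays, 0.62 to 0.77 on the VEGF-A arrays, −0.89 to −0.79 on the VEGF Trap arrays and −0.35 to −0.26 on the hFc arrays. These 4 ranges did not overlap.

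**Figure D2:**
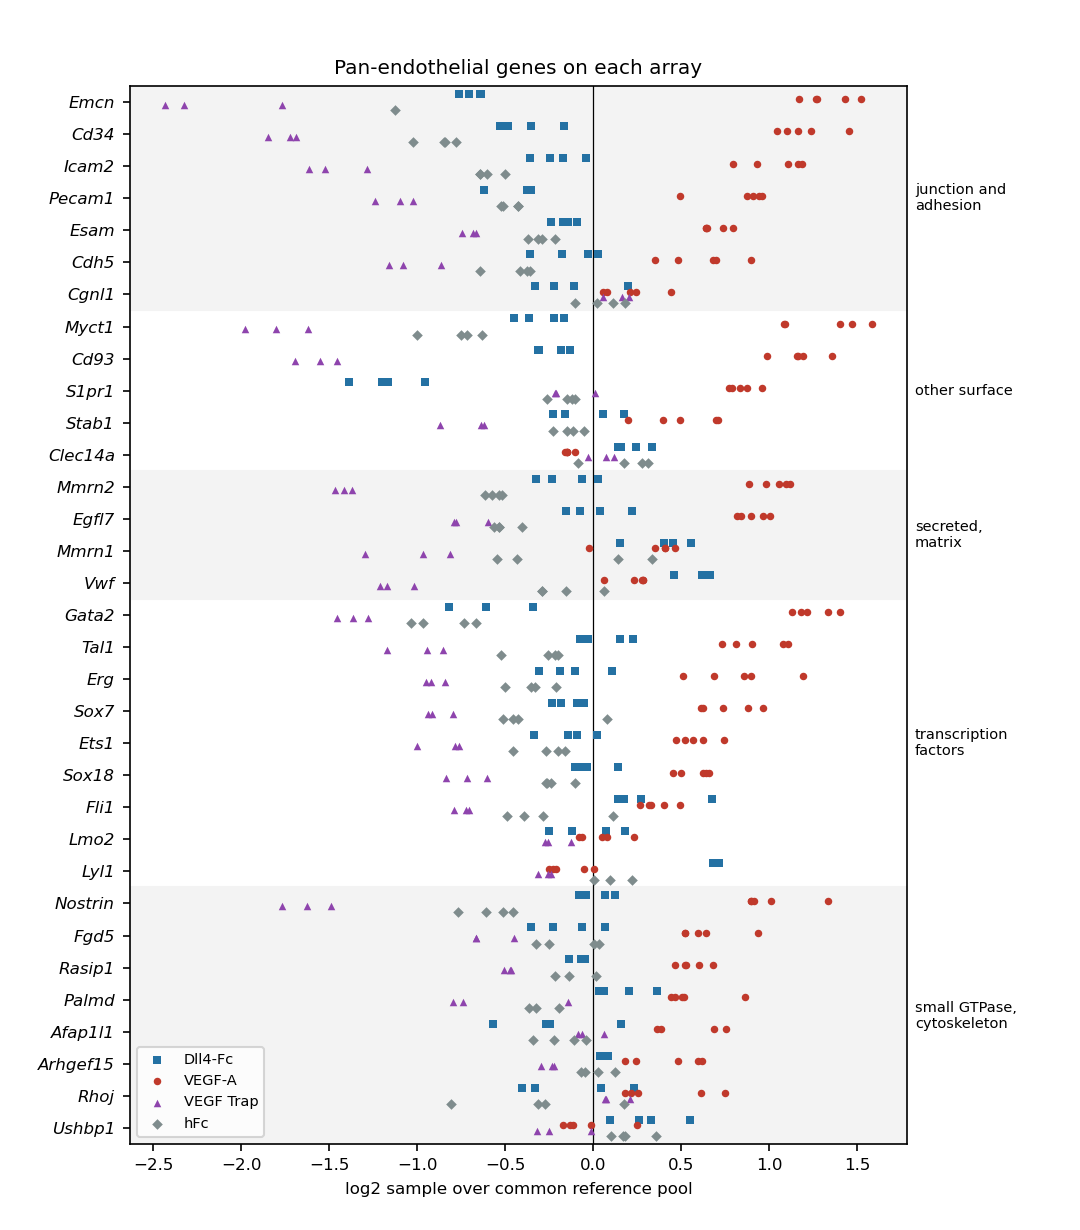
Log2 ratio of each retina over the common pool (x axis) for the 33 members (rows, grouped by role and ordered by their VEGF-A mean), with 1 point for each array. VEGF-A arrays (red circles) lie to the right and VEGF Trap arrays (purple triangles) to the left for most members. Clec14a, Lyl1 and Ushbp1 have a VEGF-A mean below 0, and that of Lmo2 is 0.04.

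Some limits of the arrays bear on these values. One slide held the Dll4-Fc arrays, a different one the hFc arrays, and the other 2 slides the VEGF-A and VEGF Trap arrays. No slide held both groups of any comparison with hFc or of Dll4-Fc against VEGF-A, so that slide and treatment cannot be told apart in those 4 comparisons. Slide as a random block, which cannot remove such a difference, left every count of member calls as it was. For VEGF-A against VEGF Trap, which shared slides, with slide as a fixed block 27 members were again called higher and 0 lower. The hFc arrays carried 2350 to 2599 spots that the scanner software marked as outliers, against 12 to 213 on the other arrays. With such spots left out, Cd93 and Lmo2 had no hFc value on their chosen probe, Emcn had 1, and Lyl1, Palmd and Rasip1 had 3. The share of spots well above background in Cy3 was 84.9 to 91.0% over the 16 arrays, and no spot was saturated. Nothing in the labels says that replicates are separate animals, so the p-values measure the spread between these samples.

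Among the 7 junction and adhesion genes, 6 were called higher in VEGF-A retinas, 6 lower in VEGF Trap retinas and 2 higher in Dll4-Fc retinas, each against hFc. Emcn encodes endomucin, a sialomucin of capillary and venous endothelium. Its log2 level was −0.76, −0.64, −0.71 and −0.64 in Dll4-Fc retinas, 1.27, 1.17, 1.27, 1.43 and 1.52 in VEGF-A retinas, −2.43, −1.77 and −2.32 in VEGF Trap retinas and −1.12 in the single hFc retina with a usable spot. Every VEGF-A array was above and every VEGF Trap array below all others. The VEGF-A over VEGF Trap difference of 3.51 ± 0.14 (SE) was the largest of the members, an 11.4-fold difference (adjusted p = 4.07e-09).

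Because Emcn kept 1 hFc array, its hFc differences of 2.46 ± 0.21 for VEGF-A (adjusted p = 6.07e-06) and −1.05 ± 0.22 for VEGF Trap (adjusted p = 0.0267) rest on that array, and the VEGF Trap call was lost without VEGF Trap replicate 1 or 3. A second Emcn probe with all 4 hFc arrays gave 2.49 and −0.99. The marked hFc spots of the first probe read −1.35, −1.46 and −1.26, near the unmarked one. For Dll4-Fc the difference of 0.44 ± 0.21 was not called (adjusted p = 0.433), and Dll4-Fc retinas were 4.05-fold lower than VEGF-A retinas (adjusted p = 3.73e-07).

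Cd34 encodes a sialomucin of endothelial and blood-forming progenitor cells. It read −0.53, −0.35, −0.49 and −0.16 in Dll4-Fc retinas, 1.05, 1.104, 1.45, 1.24 and 1.17 in VEGF-A retinas, −1.72, −1.69 and −1.85 in VEGF Trap retinas and −0.84, −0.85, −0.78 and −1.02 in hFc retinas. No 2 groups overlapped. Against hFc it rose 4.21-fold with VEGF-A (2.07 ± 0.10, adjusted p = 1.06e-09), rose 1.4-fold with Dll4-Fc (0.49 ± 0.10, adjusted p = 0.00803) and was 1.84-fold lower with VEGF Trap (−0.88 ± 0.11, adjusted p = 0.00066). The Dll4-Fc call was lost with the Cy3 channel alone. The step between VEGF-A and VEGF Trap was 7.74-fold.

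Icam2, an adhesion molecule that binds leukocyte integrins and is constitutive on endothelium, ran in the same order. Its levels were −0.36, −0.04, −0.24 and −0.17 in Dll4-Fc retinas, 0.80, 0.93, 1.19, 1.11 and 1.17 in VEGF-A retinas, −1.62, −1.28 and −1.52 in VEGF Trap retinas and −0.50, −0.61, −0.64 and −0.65 in hFc retinas. The differences from hFc were, with Dll4-Fc 0.40 ± 0.10, with VEGF-A 1.64 ± 0.10 and with VEGF Trap −0.88 ± 0.11, at adjusted p-values of 0.0385, 1.61e-08 and 0.000804. Groups were again apart, but the Dll4-Fc call was lost without replicate 2, 3 or 4 of either group, with hFc 1 and 2 averaged and with the Cy3 channel alone.

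The classical markers Pecam1 (CD31) and Cdh5 (VE-cadherin), which hold endothelial cells together, had the same directions with VEGF-A and VEGF Trap. Pecam1 was 2.47-fold higher in VEGF-A than in hFc retinas (1.31 ± 0.10, adjusted p = 1.6e-07) and 1.57-fold lower in VEGF Trap retinas (adjusted p = 0.00598). Cdh5 was 2.1-fold higher (adjusted p = 1.13e-05) and 1.5-fold lower (adjusted p = 0.0272), the VEGF Trap call lost without hFc replicate 1, 2 or 3 or VEGF Trap replicate 1 or 3. Esam, an immunoglobulin-type adhesion molecule of tight junctions, rose by 0.99 ± 0.06 with VEGF-A and fell with VEGF Trap, at −0.40 ± 0.07. None of these 3 was called in Dll4-Fc against hFc retinas, with adjusted p-values of 0.925, 0.24 and 0.344. Cgnl1, or paracingulin, a junction protein that epithelial cells also carry, was called in no comparison. Its VEGF-A over VEGF Trap difference was 0.07, with a 95% interval of −0.19 to 0.32.

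The other surface proteins split. Myct1, a small membrane protein known from endothelial cells, read −0.45, −0.22, −0.37 and −0.17 in Dll4-Fc retinas, 1.09, 1.09, 1.58, 1.47 and 1.41 in VEGF-A retinas, −1.98, −1.62 and −1.80 in VEGF Trap retinas and −0.63, −0.72, −0.75 and −1.001 in hFc retinas. No 2 groups overlapped. It was 4.29-fold higher with VEGF-A (adjusted p = 1e-08), 2.04-fold lower with VEGF Trap (adjusted p = 0.00123) and 1.39-fold higher with Dll4-Fc (adjusted p = 0.047). Its other 2 probes gave smaller VEGF-A differences of 0.98 and 0.99, and read 0.18 and 0.04 for Dll4-Fc. The Dll4-Fc call was lost when any 1 array of either group was left out.

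Cd93, a C-type lectin-like receptor that binds matrix proteins such as multimerin 2, read −0.31, −0.18, −0.31 and −0.13 in Dll4-Fc retinas, 1.17, 0.99, 1.36, 1.19 and 1.16 in VEGF-A retinas and −1.69, −1.55 and −1.46 in VEGF Trap retinas. VEGF-A retinas exceeded VEGF Trap retinas 6.69-fold (2.74 ± 0.09, adjusted p = 1.05e-09). Dll4-Fc retinas lay between and were 2.65-fold below VEGF-A retinas (adjusted p = 2.7e-07). Its chosen probe had no unmarked hFc spot. Another 2, dimmer Cd93 probes put VEGF-A 2.08 and 2.46 above hFc, Dll4-Fc 0.42 and 0.57 above it, and VEGF Trap at −1.01 and −1.02.

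S1pr1, the sphingosine-1-phosphate receptor that stabilises endothelial junctions and that astrocytes also express, followed another order. It read −1.16, −1.39, −1.20 and −0.95 in Dll4-Fc retinas, 0.79, 0.88, 0.96, 0.77 and 0.84 in VEGF-A retinas, 0.01, −0.21 and −0.22 in VEGF Trap retinas and −0.15, −0.12, −0.10 and −0.26 in hFc retinas. All Dll4-Fc arrays were below every other array, and VEGF Trap overlapped hFc. Against hFc it was 2.02-fold lower with Dll4-Fc (−1.02 ± 0.09, adjusted p = 4.68e-06) and 2.01-fold higher with VEGF-A (1.01 ± 0.09, adjusted p = 6.93e-07). With VEGF Trap the difference was 0.02 ± 0.10 and was not called (adjusted p = 0.927). S1pr1 was the single member called lower with Dll4-Fc, where 27 of 31 members had a positive difference. Dll4-Fc retinas were 4.06-fold below VEGF-A retinas (adjusted p = 4.58e-10).

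Müller glia markers moved alongside S1pr1 in the Dll4-Fc group, with 3 of 5 called lower and 0 higher than in hFc retinas. Against hFc retinas 2 were called higher and 2 lower with VEGF-A, where S1pr1 was also higher, and limma called 0 with VEGF Trap (0 at an unadjusted p under 0.05). With VEGF-A, Vim, an intermediate filament protein that many other cells carry, rose by 1.89 ± 0.13 (adjusted p = 9.63e-08), while the water channel gene Aqp4 was at −1.79 ± 0.24 (adjusted p = 0.000135). The mean log2 level of the 5 was −1.04 to −0.12 on Dll4-Fc arrays, −0.17 to 0.18 on VEGF-A arrays, −0.09 to 0.31 on VEGF Trap arrays and 0.02 to 0.05 on hFc arrays. The part of glia in the S1pr1 results was not tested.

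Stab1, a scavenger receptor of sinusoidal endothelium and of macrophages, rose 1.55-fold with VEGF-A (adjusted p = 0.00145) and was 1.49-fold lower with VEGF Trap (adjusted p = 0.0271), against hFc, the VEGF Trap call being lost without hFc replicate 2, 3 or 4 or VEGF Trap replicate 1 or 3. Clec14a, a C-type lectin-like endothelial surface protein, went the other way with VEGF-A. Its levels were 0.24, 0.14, 0.33 and 0.16 in Dll4-Fc retinas, −0.16, −0.15, −0.15, −0.10 and −0.15 in VEGF-A retinas, −0.03, 0.12 and 0.07 in VEGF Trap retinas and −0.09, 0.31, 0.17 and 0.28 in hFc retinas. The 5 VEGF-A arrays lay below all others, by −0.31 ± 0.08 against hFc (adjusted p = 0.0183), a 1.24-fold difference. hFc replicate 1 came close to them, and the call was lost without hFc replicate 2 or 4, with the Cy3 channel alone, with the mean over probes, with only the 2 groups compared and with slide 3 or slide 4 only. In Dll4-Fc against VEGF-A retinas Clec14a was 1.28-fold higher (adjusted p = 0.00499), a call lost with the mean over probes and with slide 4 only.

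**Figure D3:**
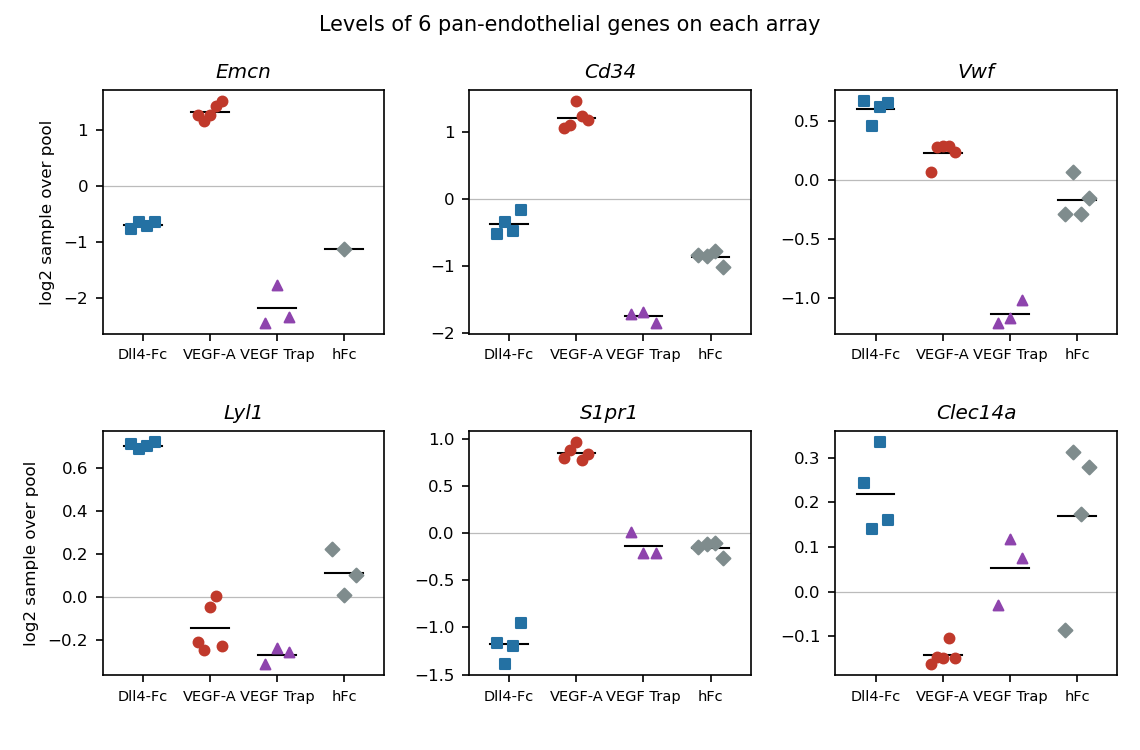
Log2 ratio over the common pool for 6 members on each array (points) with group means (black lines); each panel has its own axis. Emcn and Cd34 have VEGF-A arrays on top and VEGF Trap arrays at the bottom, Vwf and Lyl1 are highest in Dll4-Fc retinas, S1pr1 is lowest there, and Clec14a is lowest in VEGF-A retinas.

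Secreted and matrix proteins included the 2 multimerins. Mmrn2, an endothelial matrix protein that Cd93 and Clec14a bind, was 3-fold higher with VEGF-A (1.59 ± 0.08, adjusted p = 1.7e-09), 1.33-fold higher with Dll4-Fc (adjusted p = 0.00582) and 1.82-fold lower with VEGF Trap (adjusted p = 0.000122) than in hFc retinas. Mmrn1, a protein of platelets and endothelial storage granules, was lower with VEGF Trap at −0.90 ± 0.20 (adjusted p = 0.0266) and was not called with VEGF-A (0.45 ± 0.18) or Dll4-Fc (0.52 ± 0.19). Its hFc arrays alone read −0.55, −0.44, 0.14 and 0.34, and the VEGF Trap call was lost without hFc replicate 3 or 4 or VEGF Trap replicate 1.

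Egfl7 encodes a secreted protein of endothelial tubes. Its levels were −0.07, 0.22, 0.04 and −0.15 in Dll4-Fc retinas, 1.004, 0.84, 0.96, 0.82 and 0.90 in VEGF-A retinas, −0.79, −0.60 and −0.78 in VEGF Trap retinas and −0.53, −0.53, −0.57 and −0.41 in hFc retinas. It was 2.67-fold higher with VEGF-A (adjusted p = 8.78e-09) and 1.43-fold higher with Dll4-Fc (adjusted p = 0.00121). The VEGF Trap difference of −0.21 ± 0.09 was not called (adjusted p = 0.195), though its 3 arrays lay below the hFc arrays.

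Vwf, von Willebrand factor of the endothelial Weibel-Palade bodies, had its highest level in Dll4-Fc retinas. It read 0.67, 0.46, 0.62 and 0.65 there, 0.06, 0.28, 0.28, 0.28 and 0.23 in VEGF-A retinas, −1.21, −1.17 and −1.02 in VEGF Trap retinas and −0.29, 0.06, −0.29 and −0.15 in hFc retinas. All Dll4-Fc arrays were above all VEGF-A arrays, while the lowest VEGF-A array equalled the highest hFc array. Against hFc the differences were 0.77 ± 0.09 for Dll4-Fc (adjusted p = 6.05e-05), 0.40 ± 0.09 for VEGF-A (adjusted p = 0.00636) and −0.96 ± 0.10 for VEGF Trap (adjusted p = 0.000122). Dll4-Fc exceeded VEGF-A 1.29-fold (adjusted p = 0.00749). A dimmer Vwf probe gave 0.32 for that difference, not called in a limma fit over probes (adjusted p = 0.0518). The VEGF-A over hFc call was lost with the Cy3 channel alone and with slide 3 only, and the Dll4-Fc over VEGF-A call with slide 4 only.

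Platelets also carry Vwf and Mmrn1. Of 10 platelet and megakaryocyte markers, 0 were called by limma in either direction in Dll4-Fc or in VEGF Trap against hFc retinas (1 and 2 were lower, and 0 higher, at an unadjusted p under 0.05), and 3 were called higher and 1 lower in VEGF-A against hFc retinas. Their mean log2 level was −0.20 to 0.12 on Dll4-Fc arrays, 0.28 to 0.37 on VEGF-A arrays, −0.31 to −0.03 on VEGF Trap arrays and −0.26 to 0.16 on hFc arrays.

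Most transcription factors were called with VEGF-A and with VEGF Trap. Of the 8 with an hFc value, 7 were higher and 1 lower with VEGF-A, 7 were lower with VEGF Trap and 2 were higher with Dll4-Fc. Gata2, a zinc finger factor of endothelial and blood progenitor cells, read −0.82, −0.34, −0.82 and −0.61 in Dll4-Fc retinas, 1.18, 1.22, 1.13, 1.402 and 1.34 in VEGF-A retinas, −1.36, −1.28 and −1.46 in VEGF Trap retinas and −0.73, −0.66, −0.97 and −1.04 in hFc retinas. Dll4-Fc overlapped hFc and VEGF-A stood apart from both. The VEGF-A rise was 4.29-fold (2.102 ± 0.11, adjusted p = 3.44e-09), and Dll4-Fc retinas were 3.73-fold below VEGF-A retinas (adjusted p = 1.26e-08). With VEGF Trap it was 1.43-fold lower (adjusted p = 0.0357), a call lost without hFc replicate 1, 2 or 3 or VEGF Trap replicate 1 or 3. That call was also lost with the mean over probes, with only the 2 groups compared, with hFc 1 and 2 averaged and with slide 3 only. Another 2 Gata2 probes gave −0.42 and −0.28 for VEGF Trap, not called in a limma fit over probes (adjusted p = 0.0564 and 0.24).

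Erg, an ETS factor that is close to specific for endothelium outside cartilage and blood precursors, was 2.26-fold higher with VEGF-A (1.18 ± 0.12, adjusted p = 5.84e-06) and 1.47-fold lower with VEGF Trap (−0.56 ± 0.14, adjusted p = 0.0385) than with hFc. Tal1, a basic helix-loop-helix factor of blood and endothelial precursors, differed 2.34-fold upward with VEGF-A and 1.62-fold downward with VEGF Trap (adjusted p = 8.96e-07 and 0.00679). The SoxF factors Sox7 and Sox18, which act in arterial, venous and lymphatic specification, rose by 1.09 ± 0.11 and 0.79 ± 0.08 with VEGF-A and fell with VEGF Trap, at −0.56 ± 0.13 and −0.50 ± 0.09. For Sox7 hFc replicate 2 was at 0.08, above the other hFc arrays at −0.51 to −0.43, and its faintest probe gave 0.06 in place of a fall. Ets1, an ETS factor that lymphocytes also express, rose by 0.86 ± 0.09 with VEGF-A and was at −0.58 ± 0.10 with VEGF Trap (adjusted p = 8.32e-06 and 0.00782). The VEGF Trap call of Erg was lost without hFc replicate 1, 2 or 3 or any VEGF Trap replicate, that of Sox7 without hFc replicate 2 or 3 or any VEGF Trap replicate, and that of Tal1 without VEGF Trap replicate 1.

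Fli1 and Lyl1 were the transcription factors called higher with Dll4-Fc. Fli1, an ETS factor of endothelial and blood cells, read 0.14, 0.68, 0.18 and 0.28 in Dll4-Fc retinas, 0.49, 0.27, 0.32, 0.40 and 0.33 in VEGF-A retinas, −0.79, −0.72 and −0.71 in VEGF Trap retinas and 0.11, −0.39, −0.49 and −0.28 in hFc retinas. It was 1.5-fold higher with Dll4-Fc (adjusted p = 0.0152) and 1.54-fold higher with VEGF-A (adjusted p = 0.00348), while VEGF Trap at −0.48 ± 0.14 was not called (adjusted p = 0.0735). Replicate 2 of Dll4-Fc and replicate 1 of hFc stood above the rest of their groups. The Dll4-Fc call was lost without hFc replicate 2 or 3, with normexp and loess and with only the 2 groups compared.

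Lyl1, a relative of Tal1 in blood and endothelial cells, read 0.71, 0.68, 0.70 and 0.72 in Dll4-Fc retinas, −0.21, −0.25, −0.05, 0.00 and −0.23 in VEGF-A retinas, −0.31, −0.24 and −0.26 in VEGF Trap retinas and 0.22, 0.01 and 0.10 in the 3 hFc retinas with a value. All 4 Dll4-Fc arrays lay above all others. Dll4-Fc exceeded hFc 1.51-fold (0.59 ± 0.08, adjusted p = 0.000276) and VEGF-A 1.8-fold (0.85 ± 0.07, adjusted p = 8.37e-07). VEGF-A was lower than hFc at −0.26 ± 0.08 (adjusted p = 0.0449), a call lost under 13 other settings, among them without hFc replicate 1, 2 or 4 or VEGF-A replicate 1, 2 or 5. VEGF Trap was lower at −0.38 ± 0.08 (adjusted p = 0.0278), a call lost without hFc replicate 2 or 4 or VEGF Trap replicate 1 or 3. VEGF-A and VEGF Trap overlapped (0.12 ± 0.08, adjusted p = 0.289).

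Lmo2, an adaptor that joins Tal1 and GATA factors, had no hFc value. Its levels were 0.07, −0.12, 0.18 and −0.25 in Dll4-Fc retinas, 0.05, −0.08, −0.06, 0.23 and 0.08 in VEGF-A retinas and −0.27, −0.26 and −0.13 in VEGF Trap retinas, and neither difference was called.

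Markers of microglia and macrophages, which also use Fli1 and Lyl1, moved in the Dll4-Fc group. There 9 of 12 were called higher and 1 lower than in hFc retinas, with a median difference of 0.71. Their mean log2 level was 0.30 to 0.59 on Dll4-Fc arrays, −0.48 to −0.32 on VEGF-A arrays, −0.25 to −0.12 on VEGF Trap arrays and −0.38 to −0.22 on hFc arrays. Aif1, a marker of microglia, rose by 1.497 ± 0.096 in Dll4-Fc over hFc retinas (adjusted p = 2.92e-07). In VEGF-A and in VEGF Trap against hFc retinas 0 of 12 were called in the limma fit, where 2 and 3 had an unadjusted p under 0.05. The part of these cells in the Dll4-Fc results for Fli1 and Lyl1 was not tested.

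Regulators of small GTPases, the cytoskeleton and trafficking had few calls outside VEGF-A retinas. Of 8, 7 were called higher with VEGF-A, 2 lower with VEGF Trap and 1 higher with Dll4-Fc, against hFc. Nostrin, which binds and moves endothelial nitric oxide synthase, was the member of this group that was called in all 5 comparisons. It read −0.04, 0.12, −0.08 and 0.07 in Dll4-Fc retinas, 0.90, 0.90, 1.33, 0.91 and 1.01 in VEGF-A retinas, −1.62, −1.49 and −1.77 in VEGF Trap retinas and −0.46, −0.51, −0.61 and −0.77 in hFc retinas. No 2 groups overlapped. Against hFc it was 3.03-fold higher with VEGF-A (adjusted p = 3.11e-08), 1.52-fold higher with Dll4-Fc (adjusted p = 0.00243) and 2.06-fold lower with VEGF Trap (adjusted p = 0.00025). The Dll4-Fc call was lost with the band of outlier-rich rows left out.

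Rasip1, a Ras-family interactor needed for vessel lumens, was 1.6-fold higher with VEGF-A (adjusted p = 1.17e-05) and 1.29-fold lower with VEGF Trap (adjusted p = 0.0229), the VEGF Trap call being lost without hFc replicate 2 or 3 or VEGF Trap replicate 1 or 3. The exchange factors Arhgef15 and Fgd5 rose by 0.42 ± 0.09 and 0.78 ± 0.11 with VEGF-A and were not called with VEGF Trap, at −0.26 ± 0.10 and −0.46 ± 0.13. Palmd (palmdelphin), Rhoj, a small GTPase of endothelial cells, and Afap1l1, an actin-associated protein, rose by 0.85 ± 0.15, 0.71 ± 0.19 and 0.73 ± 0.14 with VEGF-A. Neither Rhoj nor Afap1l1 was lower with VEGF Trap, where they were at 0.42 ± 0.21 and 0.15 ± 0.15 (adjusted p = 0.266 and 0.597). For Rhoj the hFc arrays ran over −0.81, −0.27, −0.31 and 0.18, the VEGF-A call had an adjusted p of 0.0244, and VEGF-A against VEGF Trap was not called (adjusted p = 0.367). The VEGF-A call of Rhoj was lost without hFc replicate 1, 2 or 3 or VEGF-A replicate 1 or 2. It was also lost with only the 2 groups compared, with hFc 1 and 2 averaged and with slide 4 only. Afap1l1 was 1.49-fold higher in VEGF-A than in VEGF Trap retinas (adjusted p = 0.0154), which was lost without VEGF Trap replicate 1 or 3 and with slide 4 only. Against hFc the VEGF-A call of Afap1l1 was lost with slide 4 only and that of Arhgef15 with slide 3 only.

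Ushbp1, a protein that binds the Usher syndrome protein harmonin in human, read 0.26, 0.55, 0.33 and 0.10 in Dll4-Fc retinas, −0.17, −0.13, 0.25, −0.01 and −0.12 in VEGF-A retinas, −0.32, −0.01 and −0.25 in VEGF Trap retinas and 0.17, 0.18, 0.10 and 0.36 in hFc retinas. It was called in Dll4-Fc against VEGF-A alone, 1.27-fold higher with an adjusted p of 0.0478, and those 2 groups overlapped. The call was lost under 13 other settings, among them without Dll4-Fc replicate 1, 2 or 3 or VEGF-A replicate 1, 2, 4 or 5. It was also lost with normexp and loess, with arrays centred on the median, with only the 2 groups compared, with hFc 1 and 2 averaged and with slide 4 only.

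**Figure D4:**
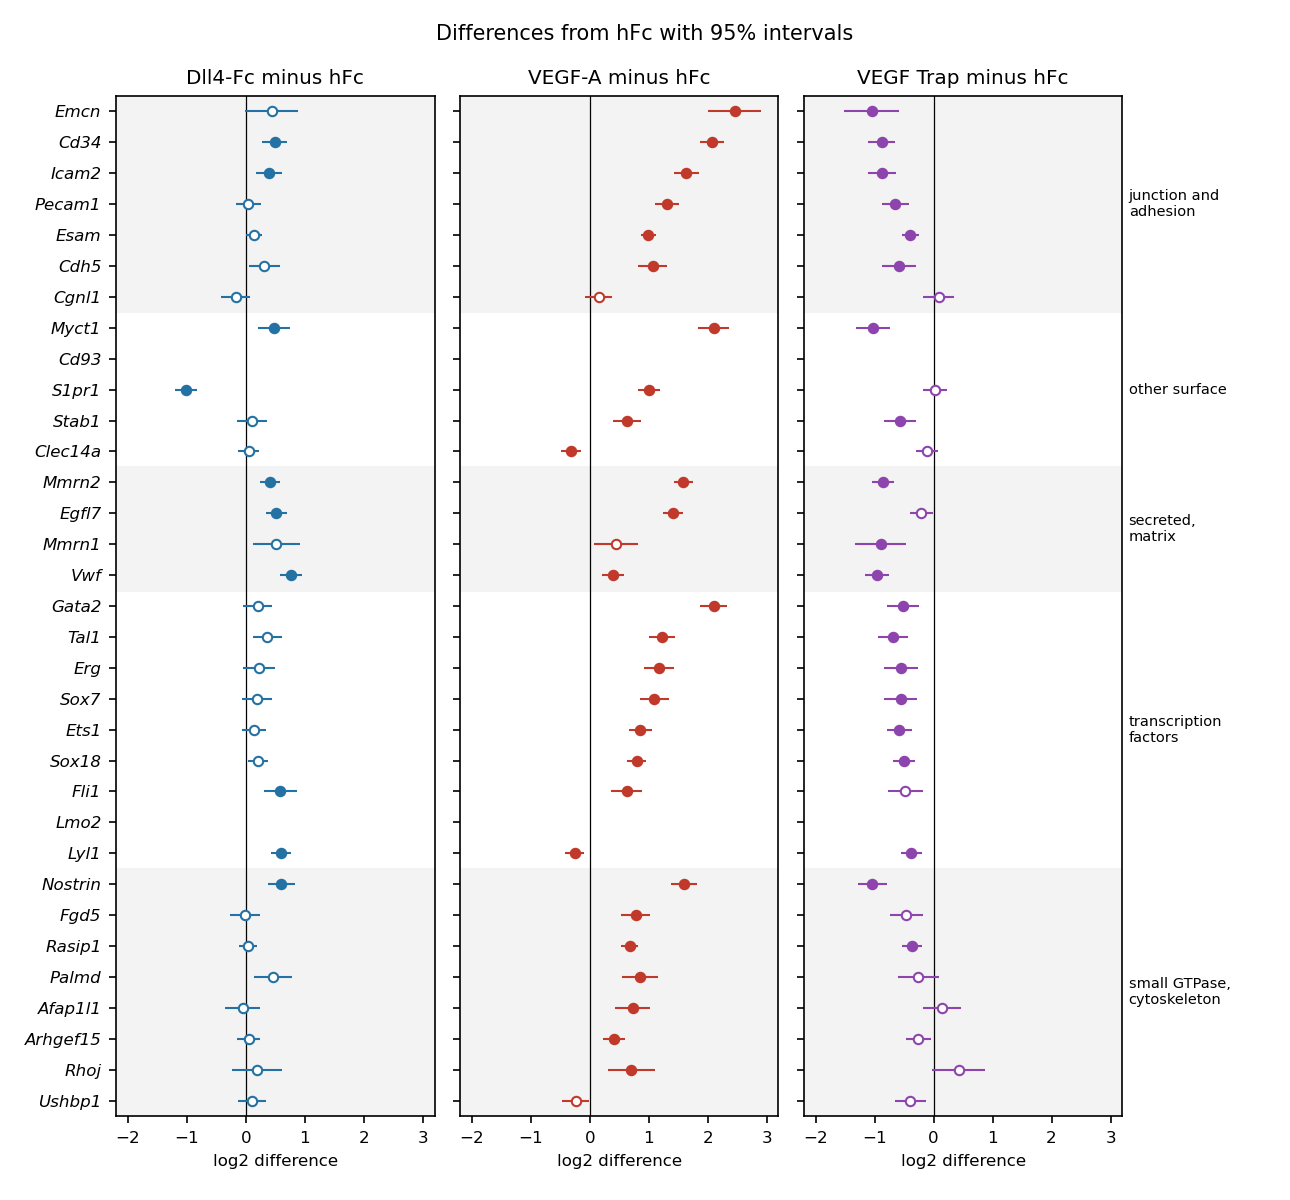
Log2 difference from hFc (x axis) with its 95% interval for each member (rows) in Dll4-Fc (left), VEGF-A (middle) and VEGF Trap (right) retinas; filled points were called at an adjusted p below 0.05 and open points were not. Cd93 and Lmo2 have no hFc value and no point. VEGF-A points lie to the right of 0 except for Clec14a, Lyl1 and Ushbp1, and in the Dll4-Fc panel S1pr1 stands alone at −1.02.

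Of 36 further endothelial genes, 16 of 35 tested were called higher and 3 lower in VEGF-A over hFc retinas, and 1 was called higher and 10 lower in VEGF Trap over hFc retinas. Medians were 0.43 and −0.39 on the log2 scale. In Dll4-Fc over hFc retinas 5 were called higher and 1 lower. Exoc3l2, a relative of an exocyst subunit, and Tm4sf1, a tetraspanin-like protein of endothelial surfaces, rose by 3.29 ± 0.11 and 2.46 ± 0.10 with VEGF-A (adjusted p = 3.22e-11 and 2.87e-10). Tie1, an orphan receptor of the angiopoietin system, was lower with VEGF Trap at −0.79 ± 0.07 (adjusted p = 9.78e-05) and Cldn5, a tight junction protein, at −0.57 ± 0.08 (adjusted p = 0.00163). Cldn5 was also called lower with VEGF-A, at −0.34 ± 0.07 (adjusted p = 0.00452). The others called lower with VEGF-A were Ptprb (−0.62) and Kank3 (−0.28), and Epas1 was the gene called higher with VEGF Trap (0.96).

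Cell cycle genes moved with the members. Of 19 measured, 18 were called higher in VEGF-A and 6 lower in VEGF Trap than in hFc retinas, and 8 were higher in Dll4-Fc than in hFc retinas. Cdk1, the kinase that drives entry into mitosis, rose by 2.34 ± 0.11 with VEGF-A (adjusted p = 1.93e-09). The mean log2 level of the cell cycle list was −0.25 to −0.06 on Dll4-Fc arrays, 0.77 to 0.97 on VEGF-A arrays, −1.11 to −0.94 on VEGF Trap arrays and −0.77 to −0.48 on hFc arrays.

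Lists of other cells in the retina moved less evenly. Erythroid markers had 4 of 7 called higher with VEGF-A over hFc and 0 called by limma with Dll4-Fc or VEGF Trap (1 and 3 at an unadjusted p under 0.05). Their mean level was −0.35 to 0.15 on Dll4-Fc arrays, 0.12 to 1.13 on VEGF-A arrays, −0.90 to −0.71 on VEGF Trap arrays and −0.52 to −0.05 on hFc arrays. Mural cell markers had 4 of 12 higher and 4 lower with VEGF-A and 4 lower with VEGF Trap, and 0 called by limma with Dll4-Fc (1 at an unadjusted p under 0.05). Their mean level was −0.63 to −0.32 on Dll4-Fc arrays, 0.13 to 0.21 on VEGF-A arrays, −0.88 to −0.44 on VEGF Trap arrays and −0.54 to −0.24 on hFc arrays. Acta2, the smooth muscle actin, was 4.25 ± 0.20 higher with VEGF-A (adjusted p = 1.4e-09), while Kcnj8, a potassium channel subunit of pericytes, was at −2.13 ± 0.15 (adjusted p = 7.52e-08).

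Of 5 lymphatic endothelial markers measured, 1 was called higher and 1 lower with VEGF-A, 1 lower with Dll4-Fc and 1 higher with VEGF Trap. The 5 Müller glia markers, which mark glia of the retina, were well above background on every array that measured them. A list of 9 endothelial markers, 7 of them among the 33 members, had 3 called higher with Dll4-Fc, 8 higher and 1 lower with VEGF-A, and 8 lower with VEGF Trap. The part of these other cells and of cell division in the members' differences was not tested.

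The promoter windows of the members are shown because many members moved together. RefSeq windows of the mouse build GRCm38.p6, 250 bases before to 50 after a gene start, were given for 17 of the 33 members (23 windows). An ETS motif, CAGGAA or CCGGAA on either strand, was found in 14 of the 17 genes (82.4%), beside 44.7% of all 27025 genes with a window. By window the shares were 65.2% of members and 41.4% of all. The GATA motif AGATAA was in 17.6% of member genes and 12.7% of all genes, the SOX motifs AACAAT or AACAAAG in 29.4% and 17.7%, and the E box CAGATG in 23.5% and 19.2%. A match is a run of letters and not a shown binding site. The Lyl1 window holds 3 of the ETS motifs, and that gene was called lower with VEGF-A, a call lost under 13 other settings. Clec14a, also called lower with VEGF-A, has 2, and Cgnl1, called in no comparison, has 1. Ushbp1, not called against hFc, has 1 as well. No window of Gata2, Tal1 or Fgd5 holds an ETS motif, and these genes were 4.29-fold, 2.34-fold and 1.71-fold higher with VEGF-A than with hFc. Whether the motif goes with a difference was not tested. The 250 bases before the start follow for Emcn (chr3:137340828-137341077, plus strand), Myct1 (chr10:5593478-5593727, plus strand), Cd34 (chr1:194938571-194938820, plus strand) and Lyl1 (chr8:84701207-84701456, plus strand). By chosen probe, Emcn, Myct1 and Cd34 had the largest VEGF-A over VEGF Trap differences. That ranking depends on the probe, since other Myct1 probes gave 1.81 and 1.70 and other Cd93 probes 3.09 and 3.48. Capitals mark the ETS motifs.
Emcn: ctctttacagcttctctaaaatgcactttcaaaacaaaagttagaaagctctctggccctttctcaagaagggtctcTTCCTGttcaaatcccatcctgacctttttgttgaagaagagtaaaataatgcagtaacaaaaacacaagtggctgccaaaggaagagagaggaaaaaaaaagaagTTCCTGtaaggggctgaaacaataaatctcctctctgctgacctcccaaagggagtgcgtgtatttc
Myct1: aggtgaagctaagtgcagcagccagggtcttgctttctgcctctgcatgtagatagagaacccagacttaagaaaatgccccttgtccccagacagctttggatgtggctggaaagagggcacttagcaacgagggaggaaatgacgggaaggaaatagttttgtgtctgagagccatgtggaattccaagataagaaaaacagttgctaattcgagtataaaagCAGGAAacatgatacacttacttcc
Cd34: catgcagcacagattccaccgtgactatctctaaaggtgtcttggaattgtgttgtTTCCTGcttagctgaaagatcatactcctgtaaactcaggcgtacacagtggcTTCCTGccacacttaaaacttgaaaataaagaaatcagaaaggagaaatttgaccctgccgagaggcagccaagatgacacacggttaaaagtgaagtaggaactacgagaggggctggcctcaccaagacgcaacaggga
Lyl1: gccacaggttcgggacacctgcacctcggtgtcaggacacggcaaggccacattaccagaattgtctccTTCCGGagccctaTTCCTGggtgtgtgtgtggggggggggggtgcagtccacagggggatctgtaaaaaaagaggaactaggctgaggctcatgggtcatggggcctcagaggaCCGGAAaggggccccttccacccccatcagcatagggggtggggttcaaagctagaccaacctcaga
The motif began 173 and 67 bases before the start in Emcn, 25 in Myct1, 194 and 141 in Cd34, and 181, 168 and 67 in Lyl1.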

How the data were processed

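RNA of 16 mouse retina samples was measured on 2-colour Agilent arrays, with the sample in Cy3 and a pool in Cy5 per the labels. The intensity values and flags are scanner output of Feature Extraction 9.5.1.1, per the submitters' processing notes. Per the file headers, the deposited log10 ratio is Cy5 over Cy3 after background subtraction and dye normalization. It was turned to log2 of sample over pool. The authors also deposited a series matrix, which held natural log ratios of sample over pool, uncentred, with 25.1 to 27.5% of cells empty. Its medians were 0.00737, 0.0116, 0.0116 and 0.00127 on Dll4-Fc arrays, −0.00354, −0.000165, 0.00888, −0.00581 and −0.00401 on VEGF-A arrays, 0.0146, 0.00603 and 0.0218 on VEGF Trap arrays, and 0.0184, 0.0155, 0.0186 and 0.00263 on hFc arrays. On every array its values correlated with the scanner ratios at 0.999 or above.

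Outlier spots and control spots were left out. Of 43426 probes, 39787 whose Cy3 signal was well above background on 3 or more arrays were kept, and each of 23342 genes took its brightest probe. Of these genes, 570 had no hFc value left. Names came from the files, current symbols from a RefSeq table. Groups were compared with limma 3.58.1 (R 4.3.3) in a single fit over 16 arrays, 2-sided, with Benjamini-Hochberg adjustment over all genes within each of 5 comparisons. The number of arrays limits the precision.

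The members, the other gene lists and the motifs were chosen with earlier results of these data known. All members are accounted for. A list of neuron markers is not reported here. Values per array are given for up to 6 called members with the largest rise and up to 4 with the largest fall in each comparison, and for some others that were chosen after their values were seen. From each other list up to 3 called genes with the smallest p in a comparison could be named, and Ptprb, Kank3 and Epas1 were added after their values were seen. Alternatives covered normalization, filters, probes, slides and leaving out each array. Parts of title codes, of unstated meaning, are shared by hFc replicates 1 and 2 and, across groups, by VEGF-A replicate 4 and VEGF Trap replicate 3. All were kept as separate samples, with the average of the hFc pair as an alternative.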

Additional observations from a re-analysis of the deposited data

Results flagged for a closer look

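Within groups of 4 or 5 arrays, 1 array stood apart from the rest by Dixon's criterion in 9 of 93 member and group combinations (9.68%), where chance gives about 5%. VEGF-A replicate 3 was the array in 4 of the 9. It read 0.49 for Pecam1, beside 0.87 to 0.96 on the other VEGF-A arrays. For Nostrin it read 1.33, beside 0.90 to 1.01. For Fgd5 it read 0.94, beside 0.52 to 0.64. For Palmd it read 0.86, beside 0.45 to 0.52. The other VEGF-A arrays concerned were replicate 2 for Mmrn1, at −0.022 beside 0.35 to 0.47, replicate 4 for Clec14a, at −0.10 beside −0.16 to −0.15, and replicate 1 for Vwf, at 0.063 beside 0.23 to 0.28. Dll4-Fc replicate 4 read −0.62 for Pecam1, beside −0.38 to −0.35. Sox7 on hFc replicate 2 was 0.079, beside −0.51 to −0.43.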

How the results depend on the processing

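No member that was called reversed its direction under any alternative. Where only arrays are named whose removal lost a call, some of those calls were also lost under other settings. Members called higher in VEGF-A over hFc retinas numbered 24 to 27 over all settings, and those called higher in VEGF-A over VEGF Trap retinas 26 to 27, with 0 lower throughout. With 1 array left out, the counts were 24 to 27 higher and 0 to 2 lower for VEGF-A over hFc, 6 to 8 higher and 1 lower for Dll4-Fc over hFc, 0 higher and 10 to 18 lower for VEGF Trap over hFc, 26 to 27 higher for VEGF-A over VEGF Trap, and 3 to 4 higher and 23 to 24 lower for Dll4-Fc over VEGF-A.

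The 20 members lower with VEGF Trap became 9 with the Cy3 channel alone and 8 with slide 4 only, which leaves 1 VEGF Trap array. The 2 members lower with VEGF-A than with hFc became 1 with normexp and loess, with arrays centred on the median, with the band of outlier-rich rows left out, with hFc 1 and 2 averaged, with slide 3 only and with the brightest probe that has a value on every hFc array, an alternative chosen after seeing the data. They became 0 with the Cy3 channel alone, with the mean over probes, with only the 2 groups compared and with slide 4 only. The 4 members higher in Dll4-Fc than in VEGF-A retinas became 1 with slide 4 only and 2 with the probe that has every hFc value. Where fewer samples or genes entered, that is part of the setting, and otherwise the cause was not tested.

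Over all genes the 850 calls of VEGF Trap against hFc ranged from 176 with slide 4 only and 190 without VEGF Trap replicate 1 to 1823 with normexp and loess. They were 310 with the Cy3 channel alone, 541 with only the 2 groups, 470 with hFc 1 and 2 averaged, 367, 390 and 534 without hFc replicate 2, 3 and 4, and 377 without VEGF Trap replicate 3. The 4494 calls of VEGF-A against VEGF Trap became 2350 with slide 4 only and 2895 without VEGF Trap replicate 1. The balance of calls over all genes turned for VEGF-A against hFc with slide 3 only (1369 higher and 1658 lower, against 1341 and 980) and for Dll4-Fc against VEGF-A with the Cy3 channel alone (1639 and 1397, against 1482 and 1614), with slide 3 only (2234 and 1796) and without VEGF-A replicate 3 (1689 and 1586). No paired analysis was possible because the replicate numbers follow accession order, and the one title code stem that compared groups share ties a single pair, VEGF-A replicate 4 and VEGF Trap replicate 3.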
